A study of Caenorhabditis elegans with 6 samples.

Results

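Broad acetylated domains were taken to be the peaks of 2000 bp or more in the deposited peak tables for 2 histone marks in Caenorhabditis elegans, acetylation of lysine 18 (H3K18ac) and of lysine 27 (H3K27ac) of histone H3. There were 566 such domains among 17207 nuclear H3K18ac peaks (3.29%, exact binomial 95% interval 3.03 to 3.57) and 360 among 17763 nuclear H3K27ac peaks (2.03%, 1.83 to 2.25). The members were chosen by their measured width, so the widths are given as a description and support nothing. The label held in the sense that these peaks are long, but only 90 H3K18ac and 26 H3K27ac domains reached 3000 bp, and the size limit fell within a continuous range of widths.

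The study asked how histone acetylation answers mitochondrial stress. The sample labels give wild-type N2 worms, whereas the series design names the stress reporter hsp-6::GFP for every group. The labels do not settle whether the worms carried it. Worms grew at 20 °C on E. coli HT115 from the egg to L4 or young adult. One group ate bacteria with the empty vector. The other ate a mix with 50% of its bacteria delivering cco-1 RNAi, which lowers a subunit of cytochrome c oxidase. Each condition gave 1 library per mark after fixation in 1% formaldehyde for 30 min, and the 2 input libraries were not analysed here. With 1 library in each group there is no replicate check and no test. Each fold carries an exact 95% interval that covers counting error only. Intervals of shares treat peaks or genes as independent draws and cover no difference between libraries. Whole worms were used, so fewer cells that carry a mark and less of the mark in each cell cannot be told apart.

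Acetylation of these lysines is laid down largely by the coactivators CBP and p300, and marks active promoters and enhancers. It loosens the contact of histones with DNA and is read by bromodomain proteins. Most acetylated regions are short and sit at a gene start or an enhancer, whereas long stretches are known in several animals from highly transcribed and cell-identity genes. In worms, genes lie close together, so a long stretch can reach several genes.

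The libraries held 8293828 counts in nuclear H3K18ac peaks with empty vector and 8948860 with cco-1 RNAi. The H3K27ac libraries held 11556404 and 11593321. Counts are given per 1000000 counts in nuclear peaks (CPM), and a fold is the CPM with cco-1 RNAi over that with empty vector. A domain is called higher or lower at 1.5-fold or more. The X chromosome lines of the H3K18ac table end at 7889771, and the agreement between marks was counted only over the genome that both tables reach.

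The H3K18ac domains had a median width of 2436 bp (2009 to 4744), against 510 bp for the narrow peaks. The H3K27ac domains had a median of 2290 bp (2000 to 4137), against 483 bp. Together the H3K18ac domains covered 1446 kb, or 12% of all bases in peaks, and the H3K27ac domains 865.1 kb, or 7.40%. They took 10.6% of H3K18ac counts with empty vector and 11.2% with cco-1 RNAi, and 10.4% and 10.6% of H3K27ac counts. A single peak over the ribosomal RNA gene rrn-2.1 weighed on these shares. Without it they were 9.44% and 10.9% for H3K18ac, and 9.51% and 10.4% for H3K27ac.

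In the 100 bp below the limit lay the widths of 98 H3K18ac peaks, and in the 100 bp from the limit upward those of 72. For H3K27ac these numbers were 94 and 63. The H3K18ac peaks nearest below were those of rpl-2 (1998 bp, 1.31-fold), Y55F3AM.3 (1998 bp, 1.24-fold) and F56F11.1 (1999 bp, 0.958-fold), and nearest above those of C43G2.25 (2009 bp, 1.11-fold), Y37D8A.4 (2009 bp, 1.53-fold) and fbxa-76 (2010 bp, 1.4-fold). For H3K27ac they were ZK742.2 (1998 bp, 0.962-fold), ZK512.4 (1998 bp, 1.45-fold) and csr-1 (1999 bp, 0.738-fold) below, and T28C6.10 (2000 bp, 0.882-fold), linc-90 (2000 bp, 0.849-fold) and wdr-23 (2001 bp, 1.52-fold) above.

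**Figure D1:**
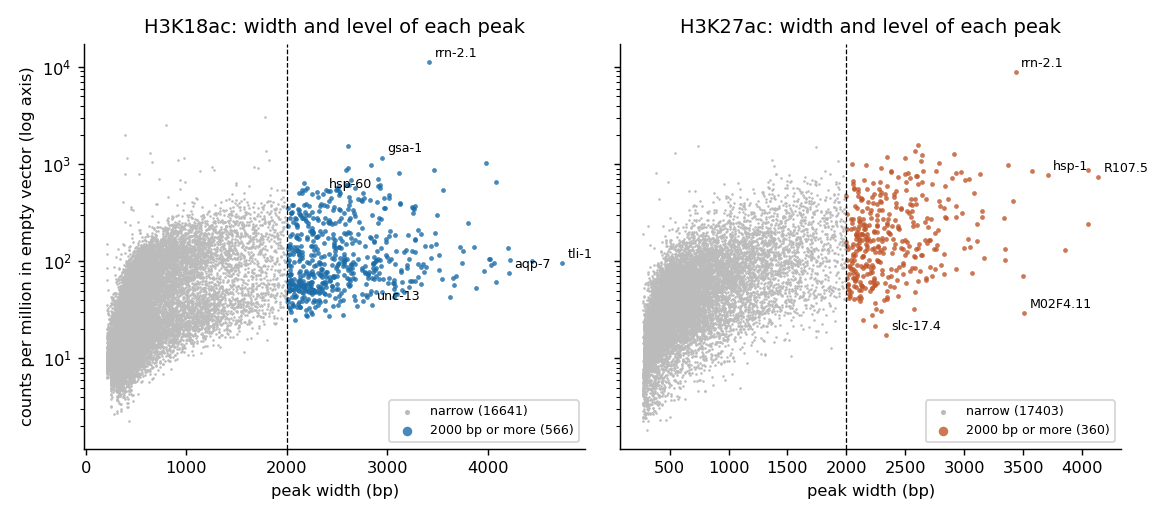
Width of every nuclear peak (bp, linear axis) against its level with empty vector (CPM, log axis), with H3K18ac on the left and H3K27ac on the right; each point is 1 peak and the dashed line stands at 2000 bp. The domains (566 and 360 coloured points) span a wide range of levels, from 24.7 to 11159 CPM for H3K18ac and from 17.3 to 8883 CPM for H3K27ac, and rrn-2.1 stands far above the rest.

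With empty vector, a broad domain held more counts than a narrow peak, but for H3K18ac it was not denser. The median level was 96.7 CPM in H3K18ac domains and 32.1 CPM in narrow peaks. Per kb of peak these medians were 36.3 and 60.02 CPM, and 372 of 566 domains (65.7%) lay below the median density of all H3K18ac peaks. The broad H3K18ac domains were therefore mostly long and shallow. H3K27ac domains had a median of 166.2 CPM against 30.4 CPM in narrow peaks. Per kb they stood at 72.9 CPM against 57.3 CPM, and 149 of 360 (41.4%) lay below the median of all H3K27ac peaks. Width and level were only loosely tied among the domains, with a Spearman rho of 0.18 over 566 H3K18ac domains and 0.30 over 360 H3K27ac domains. These points share a library and are no replicates.

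Broad domains lay over gene starts. By the positions in the deposited tables, 439 of 566 H3K18ac domains (77.6%, 73.9 to 80.9) covered the start of the gene the authors assigned, against 28.2% of narrow peaks. For H3K27ac it was 302 of 360 (83.9%, 79.7 to 87.5) against 30.2%. A domain of either mark overlapped at most 4 protein-coding genes. Among H3K18ac domains 36.6% overlapped 2 or more coding genes and 14.1% held a whole one, against 7.93% and 1.45% of narrow peaks. Among H3K27ac domains these shares were 50.8% and 17.8%, against 8.72% and 1.82%. The shares were not corrected for width, and a longer interval reaches more annotation by its length.

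The gene assigned was protein-coding for 417 H3K18ac domains (73.7%) and 279 H3K27ac domains (77.5%), against 65.9% and 67.4% of narrow peaks. The other H3K18ac domains were assigned mainly to ncRNA (79), snoRNA (19), piRNA (13) and miRNA (9) genes. Many such small genes lie within or beside a coding gene, and the domain then also covers the coding gene. At 93 H3K18ac domains (16.4%) and 8.33% of H3K27ac domains no coding gene was overlapped. Chromosome III held the highest share of broad peaks for both marks, 4.51% (3.79 to 5.32) of its H3K18ac peaks and 2.93% (2.35 to 3.59) of its H3K27ac peaks. The lowest share was 2.69% on chromosome II for H3K18ac and 1.2% on chromosome X for H3K27ac.

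The widest domains lay over or near genes of mixed roles, and for H3K27ac they included chaperone and cytoskeleton genes. The widest H3K18ac domain covered the start of tli-1 (chrI:10537930-10542673 of WBcel235, 4744 bp), with 789 counts with empty vector and 878 with cco-1 RNAi, 1.03-fold (0.936 to 1.14). Next in width came F56H9.2 (4441 bp, 829 and 709 counts), K04C2.3 (4224 bp, 850 and 747 counts) and the aquaporin gene aqp-7 (4211 bp, 629 and 1204 counts). Of these, aqp-7 alone passed 1.5-fold. The rest of the 10 widest were mtrr-1 (methionine synthase reductase; the domain lies upstream and overlaps no coding gene), F16A11.8, frm-1 (a FERM domain protein), C24A11.11, Y69A2AR.31 and ret-1 (reticulon), all within 1.5-fold. F16A11.8 and C24A11.11 are ncRNA genes, and their domains also covered the coding genes ppfr-1 (a phosphatase subunit) and coq-1 (ubiquinone synthesis).

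The widest H3K27ac domain covered R107.5 and the microtubule regulator cls-2 (chrIII:9052363-9056499, 4137 bp), with 8451 counts and 9389, 1.11-fold (1.08 to 1.14). It was followed by cco-1 itself (4047 bp), daf-21, the gene of the chaperone HSP90 (4046 bp, 2828 and 2567 counts), and pfkb-1.2 (3852 bp, 1524 and 2233 counts). Then came the HSP70 family gene hsp-1 (3707 bp, 8916 and 9901 counts) and the tubulin gene tbb-2 (3576 bp, 9718 and 12830 counts). The last of the 10 were M02F4.11, an ncRNA gene beside aqp-7, with ZK637.2, rrn-2.1 and T26A8.1. Over tbb-2 both marks drew nearly the same interval: 3557 of its bases were shared.

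The domains with the most counts in unstressed worms overlapped between the marks, with 6 of the 10 highest assigned to the same gene. After rrn-2.1, the H3K18ac order was Y49G5A.1 (1537 CPM with empty vector), gsa-1 (1164), the ncRNA gene Y47D3B.20 (1027), rpl-27 (982.9), hmg-1.1 (921.0), sup-26 (868.6), act-4 (861.0), ZK20.9 (819.8) and K10G6.11 (700.4). The H3K27ac order was hmg-1.1 (1557 CPM), rpl-27 (1351), ZK20.9 (1278), rpl-1 (1245), hsp-60 (1187), sup-26 (1146), pbs-1 (1076), gsa-1 (1030) and 21ur-15588 (1008). These include a G protein subunit (gsa-1), an HMG-box chromatin protein (hmg-1.1), ribosomal proteins, an actin (act-4), an RNA-binding protein (sup-26) and a proteasome subunit (pbs-1). The snoRNA gene ZK20.9 lies in a domain over din-1, a corepressor, and the piRNA gene 21ur-15588 in a domain over a subunit gene of the Sec61 channel, sec-61.B.

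Lists of genes of known roles were then read for broad domains. Of all genes that the authors assigned an H3K18ac peak, 4.79% carried a broad one, and 2.88% for H3K27ac. A domain counted only for genes that the authors assigned to it, not for others it covers. The lists were chosen with earlier results of these data known, and their shares are descriptions.

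**Figure D2:**
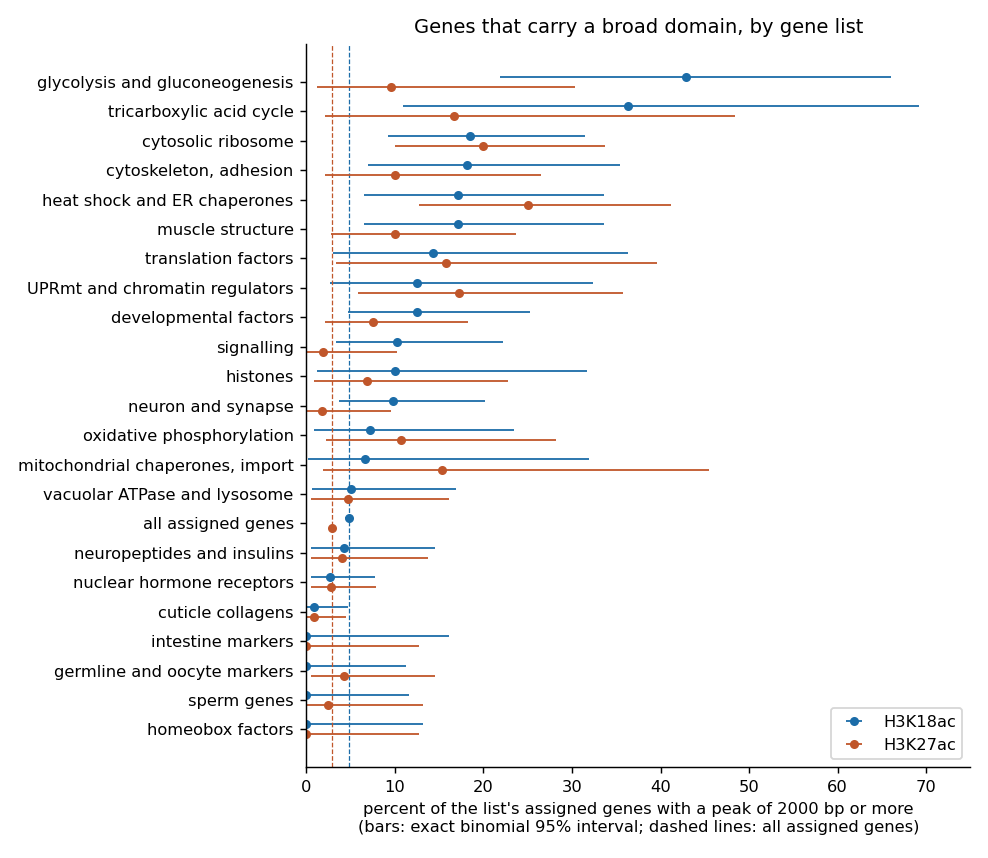
Percent of each list's assigned genes that carry a peak of 2000 bp or more (x axis, percent), for H3K18ac in blue and H3K27ac in orange; bars are exact binomial 95% intervals and dashed lines mark all assigned genes, 4.79% and 2.88%. Glycolysis and gluconeogenesis stand at 42.9% for H3K18ac, while homeobox factors and intestine markers stand at 0 for both marks.

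Some enzymes of sugar metabolism carried broad H3K18ac domains, and 4 of these were at least 1.5-fold higher under cco-1 RNAi. Of 21 genes of glycolysis and gluconeogenesis, 9 carried a broad H3K18ac domain (42.9%, 21.8 to 66.0), and 2 a broad H3K27ac domain. The aldolase gene aldo-1 (chrIII:13563327-13566577) had 361.7 CPM with empty vector and 537.3 with cco-1 RNAi, 1.49-fold (1.42 to 1.56). The triosephosphate isomerase gene tpi-1 (chrII:12038482-12041354) had 110.3 and 171.3 CPM, 1.55-fold (1.43 to 1.69). The pyruvate carboxylase gene pyc-1 had 66.1 and 77.0 CPM, 1.17-fold (1.04 to 1.31), and pck-2, a phosphoenolpyruvate carboxykinase gene, 315.2 and 399.3 CPM, 1.27-fold (1.2 to 1.33). All 4 lay above the empty vector, and tpi-1 passed 1.5-fold.

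The other five members, named after their values were seen, were gsy-1 (glycogen synthase), hxk-1 (hexokinase), fbp-1 (fructose bisphosphatase), gpi-1 (glucose phosphate isomerase) and pgk-1 (phosphoglycerate kinase). The hxk-1 domain had 37.7 and 64.9 CPM, 1.72-fold (1.5 to 1.98). The gsy-1 domain had 62.5 and 115.7 CPM, 1.85-fold (1.67 to 2.06). The fbp-1 domain had 179.0 and 279.3 CPM, 1.56-fold (1.46 to 1.66). Over the 9 domains the median log2 ratio was 0.57 (0.22 to 0.89), against 0.20 over all H3K18ac domains, and 4 of 9 were at least 1.5-fold higher (5 of 9 under the other scalings), beside 9.16% of all nuclear H3K18ac peaks. All 9 lay above 0 under every scaling tried, and above narrow peaks of like strength. H3K27ac over the same 9 intervals had a median log2 ratio of 0.29, with 8 above 0 and 1, hxk-1, at least 1.5-fold higher.

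A list of tricarboxylic acid cycle and related enzymes did not separate mitochondrial from cytosolic forms. Of its 11 genes with an H3K18ac peak, 4 carried a broad one. These were idh-1 (isocitrate dehydrogenase), mdh-1 and mdh-2 (malate dehydrogenases) and pdhb-1 (a pyruvate dehydrogenase subunit). The mdh-1 domain (chrV:6515603-6518087) had 137.5 CPM with empty vector and 231.3 with cco-1 RNAi, 1.68-fold (1.57 to 1.81), and the other 3 were within 1.5-fold, between 1.07 and 1.35. H3K27ac over the mdh-1 domain had a log2 ratio of 0.03. This malate dehydrogenase domain was thus higher in H3K18ac alone, a difference between marks that was not tested.

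Some genes of the mitochondrion's own machinery carried broad domains, and their folds ranged from 1.07 at atp-2 to 8.32 at the RNAi target. The RNAi target, cco-1, a subunit gene of cytochrome c oxidase, lay in a broad domain of both marks. Its H3K18ac domain (chrI:9787746-9789970) had 3111 counts with empty vector and 27918 with cco-1 RNAi, 8.32-fold (8.01 to 8.63). Its H3K27ac domain (chrI:9785901-9789947), which also covers the tubulin gene tba-1, had 10146 and 32055 counts, 3.15-fold (3.08 to 3.22). Counts from the chromosomal gene and from a matching insert of the feeding plasmid cannot be told apart.

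The mitochondrial chaperonin gene hsp-60, a classic target of the mitochondrial unfolded protein response, carried a broad domain of both marks over the same bases. Its H3K18ac domain (chrIII:1618143-1620502) had 4109 counts and 8271, 1.87-fold (1.80 to 1.94). Its H3K27ac domain (chrIII:1618148-1620492) had 13712 and 22659 counts, 1.65-fold (1.61 to 1.68). Both marks were higher under cco-1 RNAi over this gene.

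The mitochondrial HSP70 gene hsp-6, the other classic target and the source of the reporter's promoter, reached 2000 bp in 1 mark. Its H3K27ac domain (chrV:4825186-4827769, assigned by the authors to C37H5.5) had 5010 and 6579 counts, 1.31-fold (1.26 to 1.36). H3K18ac was split there into peaks of 1980 bp, with 2391 and 2477 counts (0.960-fold, 0.907 to 1.02), and 695 bp, with 351 and 705 counts (1.86-fold, 1.64 to 2.12). The longer H3K18ac peak at hsp-6 was thus within 1.5-fold while the shorter one was higher. If the worms carried the reporter, its reads and those of the chromosomal locus cannot be told apart.

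The protease gene spg-7 (paraplegin) carried a broad H3K27ac domain of 483 and 1070 counts, 2.21-fold (1.98 to 2.46). The carrier gene ant-1.1, which exchanges ADP and ATP across the inner membrane, had a broad domain of both marks. Its H3K18ac counts were 2851 and 4911, 1.60-fold (1.52 to 1.67), and its H3K27ac counts 9856 and 13806, 1.4-fold (1.36 to 1.43). The ATP synthase gene atp-2 carried a broad H3K27ac domain at 1.07-fold (1.03 to 1.11). By the genes the authors assigned, broad H3K18ac domains lay at 1 of 15 chaperone, protease and import genes (6.67%). They lay at 2 of 28 oxidative phosphorylation genes (7.14%), beside 4.79% of all assigned genes. For H3K27ac these were 2 of 13 (15.4%) and 3 of 28 (10.7%), beside 2.88%. The H3K27ac domain over hsp-6 was assigned to another gene and is not counted. Nor is the H3K18ac domain over timm-23, a gene of the import channel.

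The regulators of the response were mostly not broad. The factor gene atfs-1 carried a broad H3K27ac domain (chrV:14193111-14195229) with 2185 and 3014 counts, 1.38-fold (1.30 to 1.45). H3K18ac there formed peaks of 1500 bp (1.06-fold, 0.964 to 1.17) and 804 bp (1.66-fold, 1.52 to 1.81). Over the homeodomain-like factor gene dve-1 the widest peaks were 1028 bp (H3K18ac) and 1006 bp (H3K27ac). Over cbp-1, the worm gene of CBP and p300, they were 1468 bp (H3K18ac, 295 and 207 counts, 0.650-fold, 0.542 to 0.779) and 718 bp (H3K27ac, 1285 and 1236 counts, 0.959-fold, 0.886 to 1.04). The authors assigned that H3K18ac peak to R10E11.13. Shorter H3K18ac peaks assigned to cbp-1 held more counts, 966 and 1002 (0.961-fold, 0.879 to 1.05) and 746 and 613 (0.762-fold, 0.683 to 0.849). Another assigned to R10E11.13 had 141 and 154 (1.01-fold, 0.800 to 1.28). Neither dve-1 nor cbp-1 carried a broad domain.

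Among the wider list of response and chromatin regulators, 3 of 24 genes had a broad H3K18ac domain and 5 of 29 a broad H3K27ac domain. The H3K18ac ones were bet-1 (a bromodomain protein), lin-59 (a histone methyltransferase homologue) and mep-1 (a zinc finger protein), between 0.932- and 1.33-fold. The H3K27ac domain of the sirtuin gene sir-2.1 had 873 and 1449 counts, 1.66-fold (1.52 to 1.80). That of the bromodomain gene bet-2, on the part of X beyond the H3K18ac table, had 4972 and 3226 counts, 0.647-fold (0.619 to 0.676). Regulators of the same list thus stood on both sides of 1.5-fold.

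The ribosomal protein genes carried broad domains of both marks, and none of these passed 1.5-fold by total counts. Of 54 cytosolic ribosomal protein genes, 10 had a broad H3K18ac domain (18.5%, 9.26 to 31.4), and 10 of 50 a broad H3K27ac domain (20%, 10.03 to 33.7). The H3K18ac domain of rps-18 (chrIV:14823554-14826468) had 279.1 CPM with empty vector and 412.9 with cco-1 RNAi, 1.48-fold (1.4 to 1.56), and its H3K27ac domain had 829.3 and 857.8 CPM, 1.03-fold (1.01 to 1.06). The rpl-27 domain had 982.9 and 980.6 CPM of H3K18ac, 0.998-fold (0.968 to 1.03). The median log2 ratio was 0.32 over the 10 H3K18ac domains, with 9 above 0, and 0.13 over the 10 H3K27ac domains, with 6 above 0. Both medians kept their sign under each scaling tried. Against narrow peaks of like strength the marks differed. All 8 matched H3K18ac domains lay above, with a median difference of 0.24. For H3K27ac 1 of 5 matched domains lay above, with a median difference of -0.14. By TMM or DESeq2 size factors 1 of the 10 H3K18ac domains was at least 1.5-fold higher, and without scaling 2 were. Of translation factor genes, 3 of 21 were broad in H3K18ac and 3 of 19 in H3K27ac. The initiation factor gene eif-1.A had H3K27ac counts of 2742 and 4558, 1.66-fold (1.58 to 1.74).

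Genes of protein folding carried broad domains of both marks. Of 40 heat shock and endoplasmic reticulum chaperone genes, 10 had a broad H3K27ac domain (25%, 12.7 to 41.2), and 6 of 35 a broad H3K18ac domain (17.1%, 6.56 to 33.7). Besides daf-21 and hsp-1 these include cnx-1 (calnexin), crt-1 (calreticulin), pdi-2 and pdi-6 (disulfide isomerases), ubq-1 (polyubiquitin) and cct-1 (a chaperonin subunit). The cnx-1 domain of H3K27ac had 480.4 CPM with empty vector and 438.8 with cco-1 RNAi, 0.913-fold (0.879 to 0.949), and that of cct-1 116.8 and 97 CPM, 0.830-fold (0.766 to 0.899). All 10 were within 1.5-fold. Their median log2 ratio was -0.14, and 0.04 when scaled by TMM, so its direction depends on the scaling. Set against narrow H3K27ac peaks of like strength, 1 of 8 chaperone domains lay above, with a median difference of -0.34. The 6 H3K18ac domains had a median log2 ratio of 0.05.

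Structural genes of muscle and of the cytoskeleton carried broad domains of both marks. Of 35 muscle genes, 6 had a broad H3K18ac domain, among them act-4 (actin), unc-15 (paramyosin), unc-112 (kindlin) and pat-4 (integrin-linked kinase), with a median log2 ratio of -0.08, which turned to 0.03 without scaling. The log2 ratios ran from -0.27 to 0.43, with 2 of 6 above 0, those of dyb-1 (dystrobrevin) at 1.14-fold (0.991 to 1.30) and mup-2 (troponin T) at 1.34-fold (1.27 to 1.42). Of 40, 4 had a broad H3K27ac domain, with a median of -0.24 (-0.06 by TMM). The act-4 domain (chrX:4960112-4963581) had 861.0 and 782.8 CPM of H3K18ac, 0.909-fold (0.880 to 0.940). Over the same gene H3K27ac had 978.6 and 711.1 CPM, 0.727-fold (0.706 to 0.748). None of the muscle domains passed 1.5-fold in either direction. Of 33 genes of the cytoskeleton and epithelial adhesion, 6 were broad in H3K18ac, including tbb-2, let-413 (Scribble family) and pkc-3 (atypical protein kinase C), and 3 of 30 in H3K27ac.

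Neuronal genes carried broad domains mainly of H3K18ac, most of them weak. Of 61 neuron and synapse genes, 6 were broad in H3K18ac (9.84%, 3.70 to 20.2), and 1 of 56, gsa-1, in H3K27ac. The H3K18ac domain of unc-13, which primes synaptic vesicles, had 35.3 CPM with empty vector and 29.3 with cco-1 RNAi, 0.829-fold (0.699 to 0.982), and no H3K27ac peak overlapped it. The domain of unc-18, a partner of the fusion machinery, had 58.7 and 67.7 CPM, 1.15-fold (1.02 to 1.30), and that of rgef-1, a neuronal exchange factor, 45.6 and 44.9 CPM, 0.986-fold (0.854 to 1.14). The median level of the 6 was 52.2 CPM with empty vector (27.6 to 1164), against 96.7 CPM over all H3K18ac domains. The highest of them, gsa-1, is among the strongest domains of both marks.

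The other lists ranged from no broad domain to shares above those of all assigned genes, 4.79% for H3K18ac and 2.88% for H3K27ac. Among those above were developmental factors (12.5% and 7.55%), histones (10% and 6.90%) and signalling genes in H3K18ac (10.2%, but 1.92% in H3K27ac). The intervals of these shares include those of all assigned genes. None of 26 homeobox or 21 intestine marker genes with an H3K18ac peak carried a broad one, nor any of 27 and 27 with an H3K27ac peak. Among germline genes 0 of 31 were broad in H3K18ac and 2 of 47 in H3K27ac, where the cyclin gene cyb-3 had 4064 and 2621 counts, 0.643-fold (0.612 to 0.675). Among sperm genes it was 0 of 30 and 1 of 40 (spe-39), and among cuticle collagens 1 of 115 and 1 of 121, col-71 in both marks. Of nuclear hormone receptor genes 3 of 110 and 3 of 109 were broad, with nhr-49, a lipid metabolism regulator, in both. Neuropeptide and insulin genes (2 of 47 and 2 of 50) and vacuolar ATPase and lysosome genes (2 of 40 and 2 of 42) lay close to the average gene. Histone genes were broad in 2 of 20 and 2 of 29 cases, with the variant H3.3 gene his-72 in both. Signalling genes were broad in 5 of 49 cases for H3K18ac, and in 1 of 52 for H3K27ac. That one was the Wnt gene mom-2, at 1184 and 591 counts, 0.498-fold (0.450 to 0.550). The list of developmental factors counted 6 of 48 and 4 of 53, and its 4 H3K27ac domains were atfs-1, daf-14, mml-1 and nhr-49. This list overlaps others: atfs-1 is also counted among the response regulators, and nhr-49 among the nuclear hormone receptors. All 4 domains lay above 0 under each scaling tried. They stood between 1.19- and 1.43-fold by total counts, with 0 of 4 past 1.5-fold, whereas by TMM and by DESeq2 size factors 3 of 4 passed it.

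Under cco-1 RNAi most broad domains stayed within 1.5-fold. A smaller share was lower than among all peaks, which for H3K27ac did not hold against narrow peaks of like strength. For H3K18ac, 54 of 566 domains were higher (9.54%, 7.25 to 12.3), beside 9.16% of all nuclear peaks, and 14 were lower (2.47%, 1.36 to 4.12), beside 13.2%. For H3K27ac, 41 of 360 were higher (11.4%, 8.30 to 15.1), beside 8.73%, and 30 were lower (8.33%, 5.69 to 11.7), beside 23.1%. The shares of higher domains were near the background and are no result about the domains. The split depends on the scaling, which the intervals of these shares do not cover. Without scaling, 106 H3K18ac domains were higher (18.7%, all peaks 14.1%) and 8 lower (1.41%, all peaks 9.14%). With TMM scaling, which moved every H3K27ac log2 ratio by 0.18, 76 H3K27ac domains were higher (21.1%, all peaks 14.1%) and 17 lower (4.72%, all peaks 15.1%).

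**Figure D3:**
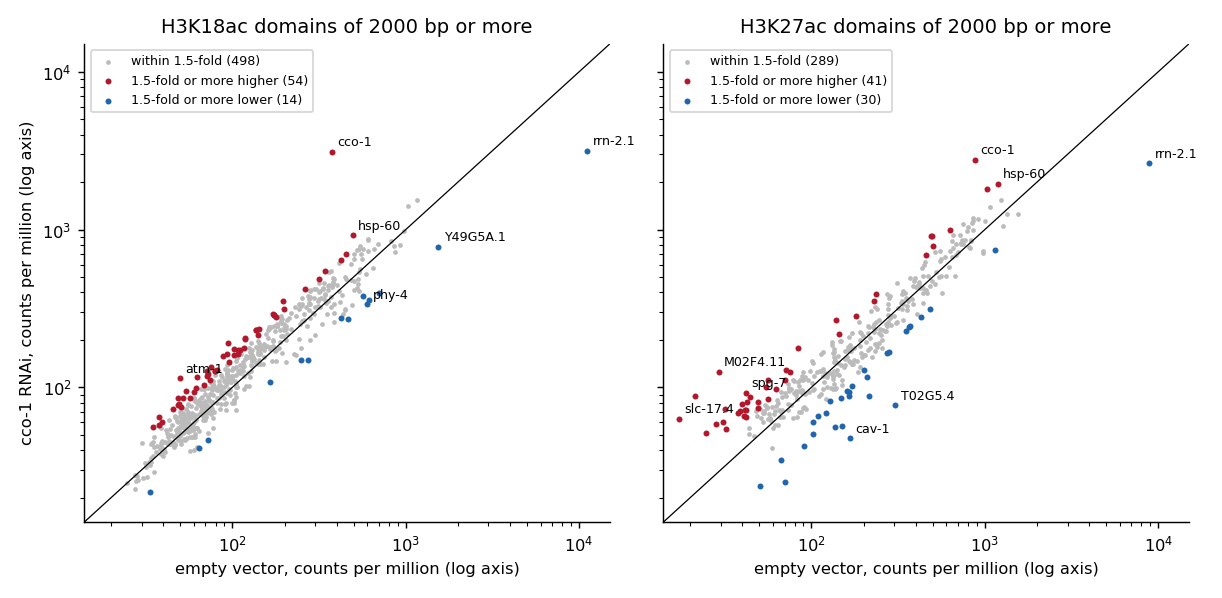
Level of each broad domain with empty vector (x axis, CPM, log) and with cco-1 RNAi (y axis, CPM, log), H3K18ac on the left and H3K27ac on the right; the line marks equal levels, red points are at least 1.5-fold higher and blue points at least 1.5-fold lower. In H3K18ac 54 domains are red and 14 blue, in H3K27ac 41 and 30, and cco-1 and rrn-2.1 lie farthest from the line among the strong domains.

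Narrow peaks are weaker, so broad domains were compared with narrow peaks of like strength. Each domain's log2 ratio was set against the median of narrow peaks in the same bin of mean CPM (0.5 log2 units wide, at least 20 narrow peaks). For H3K18ac the median log2 ratio was 0.20 over all domains (quartiles -0.02 and 0.41) and -0.04 over narrow peaks. The median difference from narrow peaks of like strength was 0.19 (quartiles -0.02 and 0.38), and 387 of 533 domains (72.6%) lay above their narrow counterparts. The other 33 domains had too few narrow peaks of their strength. Matched on mean CPM per kb instead, the difference was 0.21, with 410 of 564 domains above. So the median H3K18ac ratio was slightly higher over broad domains than over narrow peaks, with either measure of strength. By CPM per kb this turned at the dense end. From 256.0 to 362.0 CPM per kb, 11 domains had a median of 0.05 and narrow peaks 0.29. From 362.0 to 512.0, 2 domains had -0.29 and narrow peaks 0.09. Both conditions share 1 peak set, so whether a domain reached 2000 bp through its counts with cco-1 RNAi cannot be told.

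By mean CPM, the difference in H3K18ac ran through most strengths. In the bin of 64 to 90.5 CPM, 88 domains had a median log2 ratio of 0.20 and narrow peaks -0.08. In the bin of 181.0 to 256.0 CPM, 51 domains had 0.37 and narrow peaks 0.13. In the strongest bin with enough narrow peaks, from 362.0 to 512.0 CPM, the values were 0.13 and 0.11, and in the weakest, from 22.6 to 32 CPM, 10 domains had -0.13 and narrow peaks 0.00. The gap was thus found between these ends. It came with fewer low values rather than more high ones: 2.06% of matched domains were at least 1.5-fold lower against 9.64% of narrow peaks of like strength, and 9.38% were higher against 10.7%. On each chromosome the median difference was above 0, from 0.13 on II to 0.24 on X.

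H3K27ac gave no single direction. The median log2 ratio was 0.09 over all domains (quartiles -0.21 and 0.37) and -0.20 over narrow peaks. Matched on mean CPM, the median difference was -0.06 (quartiles -0.34 and 0.28), and 147 of 325 domains (45.2%) lay above their narrow counterparts, with 35 domains left without enough narrow peaks. Matched on CPM per kb, it turned to 0.13, with 219 of 359 domains (61.0%) above. At least 1.5-fold lower were 8.62% of matched domains and 7.91% of narrow peaks of like strength, and 11.4% and 14.3% were higher. The direction for H3K27ac therefore rests on how strength is measured.

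Weak and strong H3K27ac domains differed in their values. In the bin of 45.3 to 64 CPM, 34 domains had a median log2 ratio of 0.37 and narrow peaks -0.03. In the bin of 181.0 to 256.0 CPM, 41 domains had -0.09 and narrow peaks 0.20. Of the 90 weakest domains, 24 were at least 1.5-fold higher and 7 lower, with a median of 0.31, beside 8.73% and 23.1% of all nuclear H3K27ac peaks. The next 3 groups of 90 by mean CPM had medians of -0.07, -0.04 and 0.15. In these, 4, 5 and 8 domains were higher and 11, 8 and 4 lower. Whether a weak domain was listed through its counts with cco-1 RNAi alone cannot be told, because peak pooling is not given. In H3K18ac, 4 like groups from weak to strong had medians of 0.08, 0.21, 0.26 and 0.26.

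**Figure D4:**
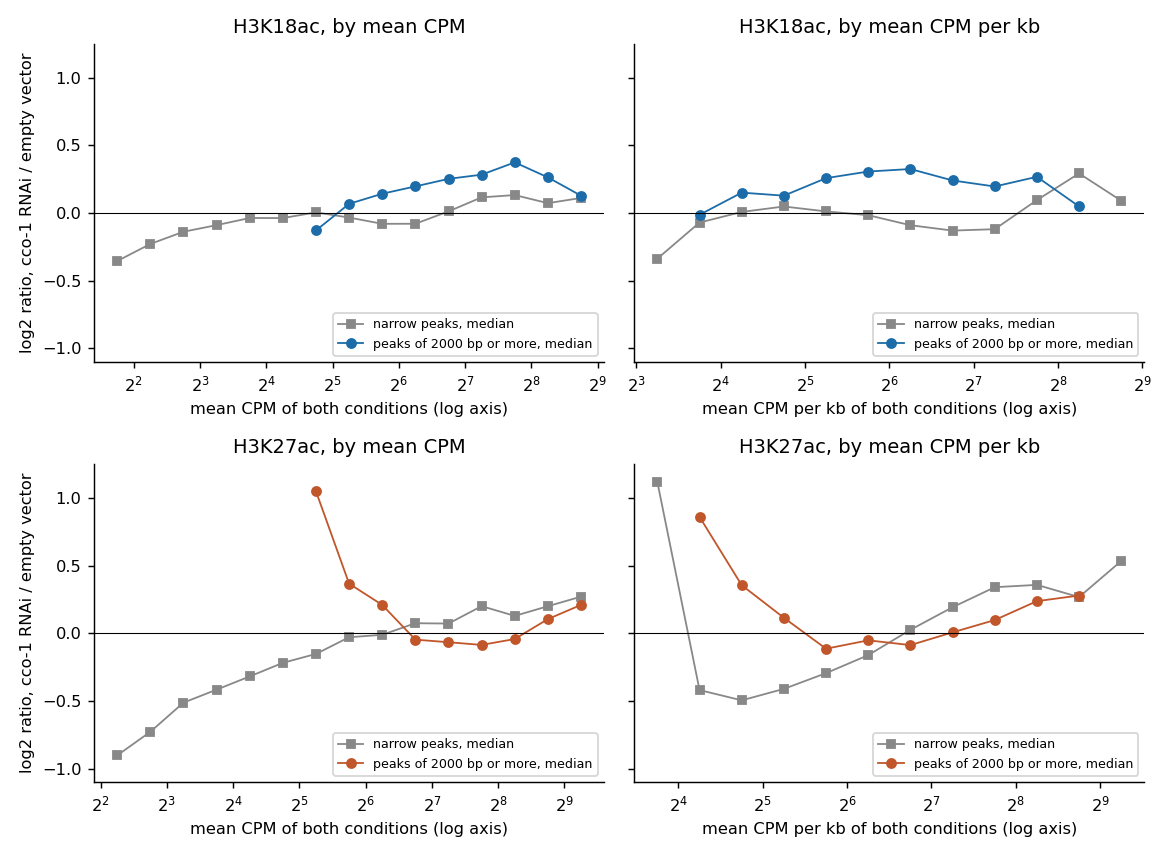
Median log2 ratio, cco-1 RNAi to empty vector, (y axis) by strength (x axis, log), for broad domains (circles) and narrow peaks (squares), in bins of 0.5 log2 units with at least 20 narrow peaks; strength is mean CPM on the left and mean CPM per kb on the right. In H3K18ac the domains lie above narrow peaks from 32 to 362.0 CPM, whereas in H3K27ac they lie above up to 90.5 CPM and below from there; single bins hold as few as 5 domains.

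Among the broad H3K18ac domains, the largest folds after cco-1 belonged to atm-1, F15D3.t1, hsp-60, gsy-1 and Y56A3A.31. The domain at atm-1, a DNA damage kinase gene (chrI:181200-183473), had 413 and 1022 counts, 2.29-fold (2.04 to 2.58). That at the tRNA gene F15D3.t1 had 782 and 1711 counts, 2.03-fold (1.86 to 2.21), and also covers prel-3 and timm-23, a gene of the inner membrane import channel. At Y56A3A.31 there were 1619 and 3144 counts, 1.80-fold (1.70 to 1.91). Of these genes, timm-23 and hsp-60 serve mitochondrial protein import and folding.

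The smallest H3K18ac folds were those of rrn-2.1, Y49G5A.1, ZK262.9, phy-4, K10G6.11 and ZK84.1. The rrn-2.1 domain (chrI:15064121-15067536) had 92551 and 28302 counts, 0.283-fold (0.280 to 0.287). It lies in the repeated ribosomal RNA genes, and how reads of repeats were placed is not given in the sources used here, so its value is uncertain. The Y49G5A.1 domain (chrV:5283284-5285892) had 12745 and 6961 counts, 0.506-fold (0.492 to 0.521). The domain near phy-4, a prolyl hydroxylase family gene, had 4960 and 3022 counts, 0.565-fold (0.540 to 0.591). The other three were between 0.548- and 0.585-fold.

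The 3 largest H3K27ac folds belonged to domains where H3K27ac was low in unstressed worms. A choice by the largest ratio favours such domains, so their low level is no result. Whether they were listed through their counts with cco-1 RNAi alone cannot be told. At M02F4.11 beside aqp-7 (chrX:3020940-3024446) there were 338 and 1455 counts, 4.29-fold (3.81 to 4.84). At DC2.5 (chrV:210807-213048) there were 247 and 1027 counts, 4.15-fold (3.60 to 4.78). At slc-17.4, a solute carrier gene (chrIV:17291712-17294043), there were 200 and 734 counts, 3.66-fold (3.13 to 4.30). These 3 domains had 17.3 to 29.3 CPM with empty vector, against a median of 166.2 over H3K27ac domains. They were followed by cco-1, tps-2, a trehalose synthesis gene (369 and 840 counts, 2.27-fold, 2.01 to 2.57), and spg-7.

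The smallest H3K27ac folds were those of T02G5.4, cav-1, rrn-2.1, T02G5.14, Y71A12B.15 and sex-1. The pseudogene T02G5.4 (chrII:7082558-7084922) had 3513 and 891 counts, 0.253-fold (0.235 to 0.272), and the domain assigned to T02G5.14 had 809 and 292 counts, 0.360-fold (0.314 to 0.412). The caveolin gene cav-1 (chrIV:9771092-9773222) had 1933 and 553 counts, 0.285-fold (0.259 to 0.314). At sex-1, a nuclear receptor gene that reads the X chromosome dose, there were 1572 and 653 counts, 0.414-fold (0.377 to 0.454). H3K18ac over these places was lower too where it was measured, with log2 ratios of -1.08 over T02G5.4 and -0.98 over cav-1, while sex-1 lies beyond the H3K18ac table.

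The marks agreed on where acetylation is, and less on how far it stretches. Of 566 H3K18ac domains, 209 (36.9%, 32.9 to 41.1) overlapped a broad H3K27ac domain by at least 1 bp. A further 330 (58.3%) overlapped only narrow H3K27ac peaks, and 27 (4.77%) overlapped none. Of 349 H3K27ac domains in the shared genome, 208 (59.6%, 54.2 to 64.8) overlapped a broad H3K18ac domain, 137 (39.3%) only narrow ones and 4 (1.15%) none. H3K27ac covered at least 50% of the bases in 75.8% of H3K18ac domains, and H3K18ac in 93.7% of H3K27ac domains. For comparison, 84.5% of narrow H3K18ac peaks and 85.6% of narrow H3K27ac peaks met any peak of the other mark.

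Domains broad in both marks had the higher median levels. The 209 shared H3K18ac domains had a median of 141.4 CPM with empty vector, and the 357 others 78.4 CPM. Shared H3K27ac domains had 209.8 CPM and the others 134.4 CPM. Where an H3K18ac domain had no broad partner, the widest H3K27ac peak in it had a median of 1099 bp. The 27 H3K18ac domains with no H3K27ac peak were weak, with a median of 35.3 CPM (24.7 to 68.6). Of these, 0 were at least 1.5-fold higher and 1 lower.

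The overlapping domains formed 209 pairs, and the paired outlines were close. The authors assigned the same gene in 179 pairs, and the shared bases made up a median of 92.2% of the union. The H3K18ac domain was wider by a median of 25 bp over all pairs. The longest shared stretches were at tbb-2, aqp-7, rrn-2.1, act-4, mtrr-1, ZK484.6, cls-2, hsp-1, F36H1.13 and Y55F3BR.9. At ZK484.6 (chrI:6090520-6093855 for H3K18ac) the counts were 1585 and 2289 for H3K18ac, 1.34-fold (1.26 to 1.43), and 3237 and 4291 for H3K27ac, 1.32-fold (1.26 to 1.38).

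The log2 ratios of the marks mostly went the same way over the pairs. Both log2 ratios lay below 0 in 49 pairs, and the signs were mixed in 32 pairs with H3K18ac above 0 and in 23 with H3K27ac above 0. In all the other pairs both lay above 0. Across the 209 pairs Pearson's r of the log2 ratios was 0.65 and Spearman's rho 0.58, and without cco-1 and rrn-2.1 they were 0.59 and 0.57. Levels with empty vector gave a rho of 0.87 and widths 0.57. The pairs come from the same 4 libraries and neighbouring pairs are not independent, so these are descriptions.

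**Figure D5:**
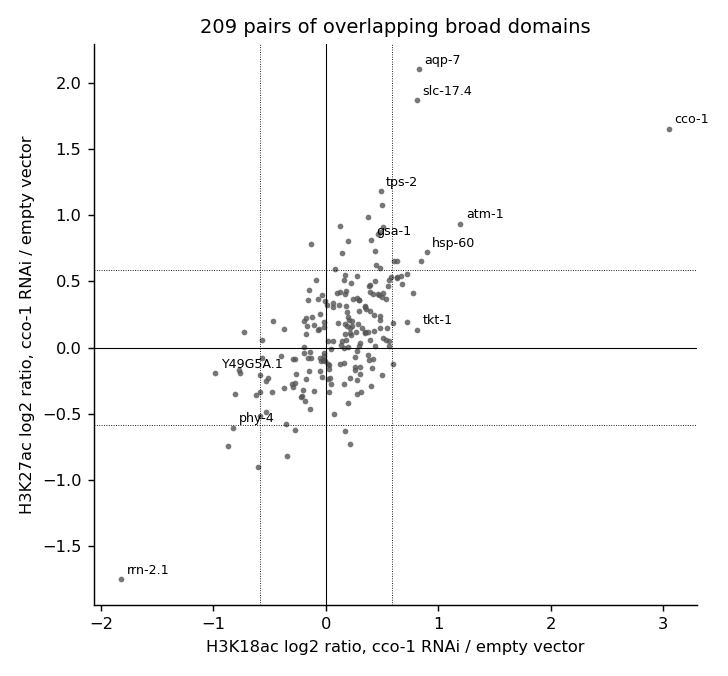
Log2 ratio, cco-1 RNAi to empty vector, for the 209 pairs of overlapping broad domains, H3K18ac on the x axis and H3K27ac on the y axis; each point is 1 pair and dotted lines mark 1.5-fold. Of the pairs, 8 lie beyond 1.5-fold upward in both marks, 4 downward in both and 0 in opposite corners.

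At 1.5-fold, 8 pairs were higher in both marks and 4 lower in both, and 0 went opposite ways. These pairs are named because of their values. The higher ones were cco-1, hsp-60, aqp-7 with M02F4.11, slc-17.4, atm-1, Y56A3A.31, Y54E10A.27 and B0546.4. The domain at slc-17.4 had 402 and 761 counts of H3K18ac, 1.75-fold (1.55 to 1.99), beside its 3.66-fold in H3K27ac. The atm-1 domain had 1602 and 3077 counts of H3K27ac, 1.92-fold (1.80 to 2.04), beside its 2.29-fold in H3K18ac. The B0546.4 domain had 2634 and 4340 counts of H3K18ac, 1.53-fold (1.46 to 1.60), and 7260 and 11460 of H3K27ac, 1.57-fold (1.53 to 1.62), and also covers mai-2, a mitochondrial ATPase inhibitor gene. The Y54E10A.27 domain covers cogc-1, a Golgi complex gene, at 1.55-fold (1.49 to 1.61) in H3K18ac and 1.58-fold (1.52 to 1.63) in H3K27ac.

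The lower pairs were rrn-2.1, phy-4, ZK262.9 and C40H1.12. The C40H1.12 domain covers the type IV collagen gene emb-9 and had 1362 and 966 counts of H3K18ac, 0.657-fold (0.605 to 0.714). Its H3K27ac counts were 1906 and 1022, 0.535-fold (0.495 to 0.577). Some pairs passed 1.5-fold in 1 mark only: 10 were higher and 7 lower in H3K18ac alone, and 15 higher and 4 lower in H3K27ac alone. The transketolase gene tkt-1, chosen after its values were seen, had 774 and 1467 counts of H3K18ac, 1.76-fold (1.61 to 1.92), and 2830 and 3119 of H3K27ac, 1.1-fold (1.04 to 1.16). The gsa-1 domain was the reverse, with 1.32-fold (1.29 to 1.36) in H3K18ac and 1.76-fold (1.72 to 1.80) in H3K27ac. No test of such differences between the marks is possible with 1 library each.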

How the data were processed

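Chromatin immunoprecipitation libraries of whole worms were made with antibodies to H3K18ac or H3K27ac. The deposited tables, 1 per mark, hold for each peak its position, an assigned gene and a whole-number count per condition, per the file headers; rounding of another unit by the authors cannot be seen in them. MACS2 2.1.2, SAMtools 1.4.1, Bowtie2 2.3.5 and FastQC are listed, with builds ce11 and WBcel235, per the submitters' processing notes. Roles, read filters, peak pooling and use of the inputs: not given in the sources used here. The 119 and 111 lines that repeat a peak were counted once, and 5 and 3 mitochondrial peaks with 0 counts were left out. Each count was scaled to its library's sum over nuclear peaks (no pseudocount; lowest count 5 and 18). Fold intervals are exact Clopper-Pearson at 95%. Scaling alternatives used TMM (edgeR 4.0.16) and size factors (DESeq2 1.42.0) in R 4.3.3, with no test. Other steps used Python 3.11.15, numpy 2.4.6, pandas 2.3.3, scipy 1.17.1 and matplotlib 3.10.9, and the matching was tested on simulated data. Gene types and coding genes came from RefSeq's gene table, which held 97.3% and 97.2% of the domains' assigned genes, and gene positions lay within 100 bp in 81.2% of matches. Members and the 22 gene lists were chosen with earlier results of these data known. Named genes are those of the 10 widest domains and the 10 highest with empty vector, of the 6 largest and 6 smallest ratios, of the 10 longest shared pairs, up to 4 per list by width, 3 peaks on either side of 2000 bp, and the target, the chaperone genes hsp-60 and hsp-6, and the regulators cbp-1, dve-1 and atfs-1. No sequence was used, so the planned motif search was not run.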

Additional observations from a re-analysis of the deposited data

How the results depend on the processing

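Of the alternative values, 64 kept their direction and stayed close to the reported value, 37 moved and 3 reversed. The cause was not tested. The 64 include alternatives that could hardly change a result. Another scaling shifts every log2 ratio alike, which nearly cancels in the difference from narrow peaks. Asking for at least 50 narrow peaks per bin left the same 533 and 325 domains. The cco-1 domains had too few narrow peaks of their strength to enter that difference. With domains of at least 1500, 2500 or 3000 bp, there were 1301, 251 and 90 H3K18ac and 1062, 114 and 26 H3K27ac domains. At these widths the H3K18ac share broad in both marks was 49.96%, 25.9% and 13.3%, and the share over a gene start 70.6%, 81.3% and 84.4%; for H3K27ac the overlap at 3000 bp was 44%, and the start share at 1500 and 3000 bp 79.2% and 88.5%. Counting starts within 1 kb gave 90.3% and 94.7%, and overlap with peaks of any width 95.2% and 98.9%. The H3K18ac difference from narrow peaks of like strength was 0.28 when strength was the level with empty vector alone and 0.22 against peaks under 1000 bp. The H3K27ac difference was -0.14 at 1500 bp, -0.20 against peaks under 1000 bp, and reversed to 0.0024 at 3000 bp, 0.066 with empty vector strength and 0.13 per kb. At 3000 bp, 6.67% of H3K18ac domains were higher and 1.11% lower, and 19.2% and 3.85% for H3K27ac; at 2500 bp 5.26% of H3K27ac domains were lower. With a 2-fold limit these shares were 0.530% and 0.177%, and 2.50% and 2.78%. Without scaling 18.7% of H3K18ac domains were higher; with TMM 21.1% of H3K27ac domains were higher and 4.72% lower, with DESeq2 size factors 23.1% and 4.44%. Leaving out the rrn-2.1 peak, an alternative chosen after seeing the data, kept the library totals and so could not change any other fold. It removed only the peak's own lower call, leaving 13 of 565 H3K18ac and 29 of 359 H3K27ac domains lower. The differences from narrow peaks could not change either, because no narrow peak had its strength. Domains held a median of 802 and 1921 counts with empty vector; with 1 library per group the spread between worms is not known. No paired analysis was possible because each group holds 1 library.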
